A study of Homo sapiens with 4 samples.

Results

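Protocadherins, the largest branch of the cadherin family of cell adhesion proteins, were taken as all protein-coding genes whose symbol begins with PCDH. This gave 66 of the 20056 protein-coding genes in the RefSeq table of GRCh38.p14. Of these, 15 belong to the alpha cluster, 16 to the beta cluster and 22 to the gamma cluster, all in tandem on chromosome 5, and 13 lie outside the clusters. A deposited m6A region counted as a protocadherin region when its annotated transcript belonged to such a gene (58 regions), when it overlapped such a gene without that transcript (4), or when only its nearest start site was that of such a gene (8). In all, 70 of the 9900 regions were taken, 16 in the alpha, 12 in the beta and 21 in the gamma cluster and 21 at the other genes.

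The regions come from m6A-seq of H1, a human embryonic stem cell line of WT genotype, in which RNA that carries N6-methyladenosine (m6A) is pulled down with an antibody and sequenced beside the RNA put in. The labels name 4 libraries, 2 of input and 2 of IP, from total RNA, and do not say whether rep1 and rep2 were separate cultures. A single set of hg38 intervals was deposited for all 4, so an interval is the whole measurement: the files used here carry neither its height nor its level in a library, and no replicate error can be set beside a count. Depth is unknown, RNA levels were not analysed here, and the absence of a region does not show that a transcript lacked m6A. The strand of the regions was not given, and nothing in the sources used here says how reads that align to several near-identical genes were handled. The part of either in the results was not tested. Ranges in brackets after a percentage are 95% exact binomial intervals (Clopper-Pearson) for counting error alone, and genes of a cluster are related copies, not replicates.

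Each alpha and gamma gene has its own promoter and a large variable first exon, which encodes the extracellular cadherin repeats and the membrane-spanning segment and is spliced to constant exons shared by the whole cluster. Beta genes consist of such a large coding exon without constant exons. In the nervous system a neuron uses only some of these promoters, and the resulting proteins bind like to like across membranes, which lets a neuron tell its own branches from those of others. The m6A mark itself, placed on messenger RNA by a nuclear methyltransferase complex, is known for its abundance in long exons and near stop codons.

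The sequences in front of the genes show how alike the members of a cluster are, and they mark the start sites from which the regions are measured. Clustered protocadherin promoters carry a conserved sequence element with a CGCT core, at which the DNA-binding protein CTCF is known to act. RefSeq promoter sequences (GRCh38.p14, 250 bp before to 50 bp after a gene's start) were available for 58 of the 66 genes. Shown are 10 of them, all on the + strand of chromosome 5, with a shared word in capitals: ATGTCGCT for alpha, GGCGCTGC for beta and CGCTGTT for gamma. PCDHGA2 and PCDHGA9 are included because most of the first 2500 bp of PCDHGA2, and all of those of PCDHGA9, had no region over them.
PCDHA1: ttggccacatgATGTCGCTgtacaccacaa
PCDHA4: ggagccacatgATGTCGCTctttaccacaa
PCDHA12: tcagtcacatgATGTCGCTctacactcaga
PCDHB4: agacgcagggtGGCGCTGCaggctaagttg
PCDHB10: ggccacacggtGGCGCTGCaggctaaagag
PCDHB13: ggacgcgtggtGGCGCTGCaggataagaag
PCDHGA4: actctgggtgtCGCTGTTcaccaatcagg
PCDHGA5: actctgagtgtCGCTGTTgaccaaagtgg
PCDHGA2: cctctgagcgtCGCTGTTgaccacctaag
PCDHGA9: actctgagcgcCGCTGTTgatcaactcta

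The alpha sequences are at chr5:140786087-140786116 (PCDHA1), chr5:140806980-140807009 (PCDHA4) and chr5:140875245-140875274 (PCDHA12). The beta sequences are at chr5:141121726-141121755 (PCDHB4), chr5:141192302-141192331 (PCDHB10) and chr5:141213868-141213897 (PCDHB13). The gamma sequences are at chr5:141354965-141354993 (PCDHGA4), chr5:141364112-141364140 (PCDHGA5), chr5:141338708-141338736 (PCDHGA2) and chr5:141402719-141402747 (PCDHGA9).

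The words were chosen after the promoters had been read, were searched on both strands and share the CGCT core. ATGTCGCT was in 9 of 13 alpha promoters, in no other protocadherin promoter and in 0.245% of all 27305 promoters of the same length. GGCGCTGC was in 11 of 14 beta promoters and 4.32% of all promoters. CGCTGTT was in 13 of 20 gamma promoters, 1 beta promoter and 2.29% of all promoters. On the coding strand and before the start site there were 31 matches, a median of 57 bp (39 to 199 bp) ahead of it. Of these, 20 lay inside an m6A region: 6 of 9 alpha, 8 of 9 beta and 6 of 13 gamma matches. Over all clustered genes, with or without a match, 10 of 15 alpha, 12 of 16 beta and 7 of 22 gamma genes were inside a region 100 bp before the start. At the start it was 12, 13 and 11. A link between the words and the regions was not tested. A match describes letters in the DNA and is not a measured binding site; the regions are measured in RNA.

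Exonic regions were found in every group of protocadherins. An exonic region, one whose centre HOMER placed in a coding, untranslated or non-coding exon, was found in 43 of the 66 genes (65.2%, 52.4 to 76.5%), where 12.9% of all protein-coding genes had one. By cluster the count was 12 of 15 alpha genes (80.0%, 51.9 to 95.7%), 18 of 22 gamma genes (81.8%, 59.7 to 94.8%) and 7 of 16 beta genes (43.8%, 19.8 to 70.1%). Outside the clusters it was 6 of 13 genes (46.2%, 19.2 to 74.9%). The intervals of the 4 groups overlap, and a wide region over several beta genes counts here only for the gene at its centre. There were 46 exonic regions in all. Among the marked genes 40 had a single exonic region, and PCDHA4, PCDHA10 and PCDH1 had 2 each. Counting overlap with the gene body in place of the centre, 59 of 66 genes had a region, where 30.2% of all protein-coding genes did; this is a ceiling, since alpha genes share their downstream part, as gamma genes do, and a region there counts for each of them. With regions up to 2 kb alone the exonic count was 7 of the 66 genes, a share close to the 10.5% of all protein-coding genes. The higher share without this limit thus came from wider regions.

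Because the gene bodies overlap, the clustered genes were compared from their starts. The first 2500 bp of an alpha or gamma gene were used in place of its variable exon, which lies there, and those of a beta gene in place of its coding exon, since exon bounds were not used here. A region touched this stretch in 51 of the 53 clustered genes: 15 of 15 alpha, 15 of 16 beta and 21 of 22 gamma genes. Among the 15843 protein-coding genes of known strand the share was 9.25%. In 44 of the 53 at least 90% of the stretch was covered (13 alpha, 15 beta and 16 gamma genes), against 2.95% of genes of known strand. In 30 of the 53 all of it was. The 9.25% and 2.95% are not matched for exon content, since in other genes the same stretch can include introns. The genes with no region there were PCDHB1 and PCDHGA9. With regions up to 5 kb alone, 34 of the 53 were touched.

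**Figure D1:**
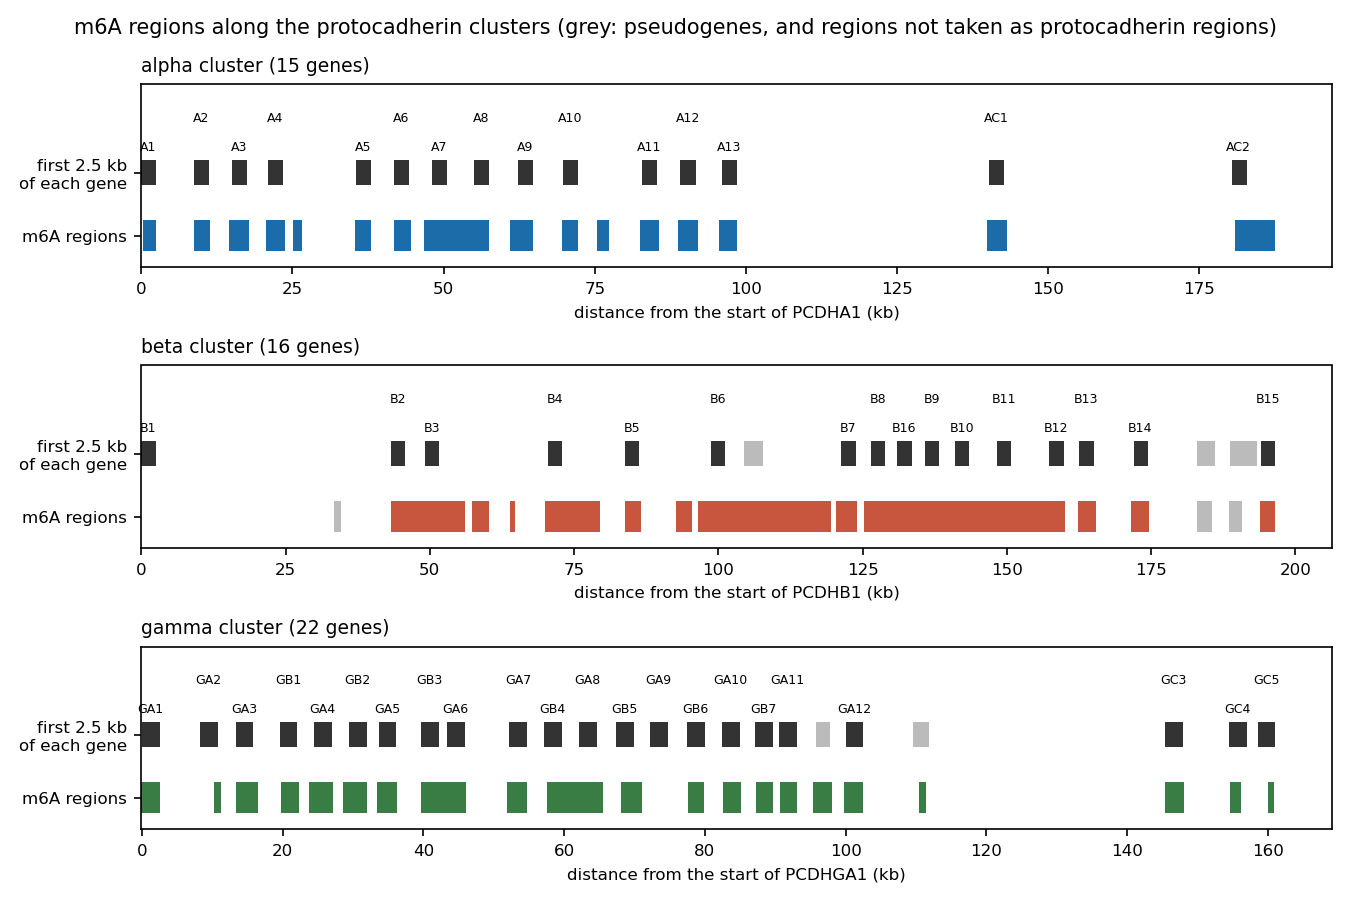
m6A regions (lower row of each panel) and the first 2500 bp of each gene (upper row, dark) along the alpha, beta and gamma clusters, as distance in kb from the start of the first gene; grey marks pseudogenes and regions not taken as protocadherin regions. Regions sit under 15 of 15 alpha, 15 of 16 beta and 21 of 22 gamma genes, and the widest, in the beta cluster, runs under 6 genes.

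In the alpha cluster, whose products are the protocadherins of the alpha type with a shared intracellular end, nearly every variable exon had a region of its own. The region of PCDHA1 ran from 140786491 to 140788636 (2146 bp), 351 to 2496 bp from the gene's start. That of PCDHA2 ran from 140794863 to 140797483 (2621 bp), 11 to 2631 bp from the start. That of PCDHA3 was 3312 bp wide and ran from 446 bp before the start to 2865 bp after it. These neighbours thus differed more in where the region began than in where it ended. The regions of PCDHA5 (2506 bp), PCDHA6 (2870 bp), PCDHA9 (3691 bp), PCDHA11 (3050 bp), PCDHA12 (3220 bp) and PCDHA13 (2984 bp) lay likewise, each ending between 2444 and 2859 bp from its gene's start. PCDHAC1, one of the C-type genes at the end of the cluster that differ in sequence from the rest, had a region of 3308 bp from 344 bp before its start to 2963 bp after it.

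PCDHA4 and PCDHA10 had a second exonic region further on. The first region of PCDHA4 was 3186 bp wide (140806695 to 140809880) and its second 1529 bp (140811244 to 140812772). The first region of PCDHA10 was 2674 bp wide (140855714 to 140858387) and its second 2018 bp (140861552 to 140863569). Both second regions were centred in the 3' UTR of a transcript annotated with a single exon, and thus without the constant exons. The 3 alpha genes without an exonic region were PCDHA7, PCDHA8 and PCDHAC2, and each was nonetheless covered: a 10701 bp region from 140832966 to 140843666, centred in an intron at an Alu repeat, ran over the variable exons of both PCDHA7 and PCDHA8, and a 6680 bp region centred at a transcript end covered 78.3% of the first 2500 bp of PCDHAC2.

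In the beta cluster, whose single-exon genes lie close together, regions were fewer and wider. A region overlapped 15 of the 16 genes, and in each of these it covered at least 56.4% of the gene body. Coverage was complete for PCDHB3, PCDHB4, PCDHB6, PCDHB8, PCDHB16, PCDHB9, PCDHB10 and PCDHB11. It was 99.5% for PCDHB2, 77.1% for PCDHB5, 72.4% for PCDHB7, 70.4% for PCDHB12, 63.0% for PCDHB15, 58.7% for PCDHB14 and 56.4% for PCDHB13. PCDHB1, which stands apart at the front of the cluster, had none, and the nearest region was 25336 bp away.

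The complete coverage came from 4 wide regions. The widest protocadherin region, 34758 bp from 141176672 to 141211429, ran over PCDHB8, PCDHB16, PCDHB9, PCDHB10, PCDHB11 and part of PCDHB12, with its centre in PCDHB10. Another of 23079 bp (141147809 to 141170887) ran over PCDHB6 and the pseudogene PCDHB17P, 1 of 12830 bp over PCDHB2 and PCDHB3, and 1 of 9543 bp over PCDHB4. These intervals include the DNA between the genes, so the position of a mark within them is not resolved. A narrower region lay over each of PCDHB5 (2630 bp), PCDHB7 (3557 bp), PCDHB13 (3055 bp), PCDHB14 (3072 bp) and PCDHB15 (2574 bp), and without regions over 5 kb the count of beta genes overlapped fell to these 5.

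In the gamma cluster, with its A, B and C type genes, 17 genes had a region over their own first 2500 bp alone. PCDHGA1, the first gene, had a region of 2625 bp from 141330428 to 141333052, which began 86 bp before the gene's start and ended 2538 bp after it. The regions of PCDHGA3 (3136 bp), PCDHGA4 (3357 bp), PCDHGA5 (2849 bp), PCDHGA7 (2761 bp), PCDHGA10 (2557 bp), PCDHGA11 (2406 bp) and PCDHGA12 (2749 bp) each covered at least 91.9% of the stretch. Among B-type genes PCDHGB1 (2635 bp), PCDHGB2 (3417 bp), PCDHGB6 (2303 bp) and PCDHGB7 (2402 bp) were covered to at least 92.1%, and PCDHGB5 (2848 bp), whose region began 714 bp after the start, to 71.4%. Neighbouring genes again shared a region in places: 6432 bp over PCDHGB3 and PCDHGA6, centred at a promoter, and 7987 bp over PCDHGB4 and PCDHGA8, centred in a 5' UTR.

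Some gamma genes departed from this layout. PCDHGA2 had a region of only 931 bp that began 2009 bp after the gene's start and covered 19.6% of the first 2500 bp. PCDHGA9 had no region there, and the next one began 5339 bp beyond the CGCTGTT word of its promoter, in PCDHGB6. Among the C-type genes coverage was 100% for PCDHGC3 (2678 bp), 65.3% for PCDHGC4 (1632 bp) and 34.2% for PCDHGC5 (854 bp, the narrowest exonic protocadherin region).

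**Figure D2:**
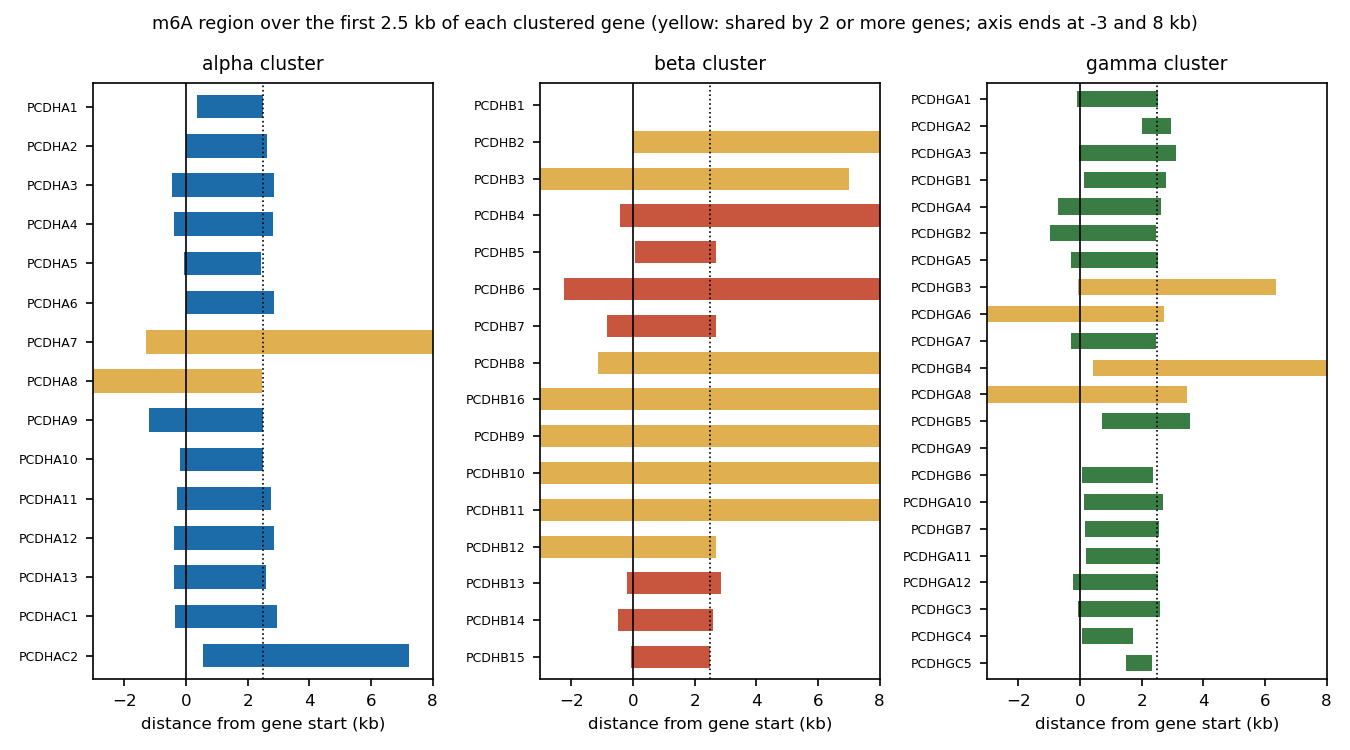
The m6A region over the first 2500 bp of each clustered gene, drawn as a bar from its start to its end in kb from the gene's start (solid line; dotted line, 2500 bp), with genes in chromosome order and bars cut at the axis ends; yellow bars are regions that 2 or more genes share. PCDHB1 and PCDHGA9 have no bar, and most unshared bars end between 2000 and 3000 bp.

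In 37 clustered genes, 13 alpha, 7 beta and 17 gamma, the region touched the first 2500 bp of no other clustered gene, while 14 genes shared 5 regions. Most of the 37 unshared regions lay close to this stretch. Their widths had a median of 2848 bp (854 to 23079 bp), and 31 of the 37 were between 2 and 4 kb. They began before the gene's start in 24 genes (10 alpha, 6 beta, 8 gamma) and after it in 13 (3, 1 and 9), and 28 began within 500 bp of it. They ended between 2000 and 3000 bp from the start in 31 of 37. Among the exceptions, the region of PCDHB6, which also ran over PCDHB17P, ended 20830 bp from the start. Those of PCDHB4 and PCDHAC2 ended at 9110 and 7222 bp.

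At 1000 bp from the start 49 of 53 clustered genes (92.5%) were inside a region, and at 1500 bp 50 were (94.3%). At 1000 bp before the start it was 14 (26.4%), and at 3000 bp after it 16 (30.2%). Of the 15 alpha genes 3 were inside a region at 1000 bp before the start, 12 at the start, 15 from 1000 to 2000 bp and 2 at 3000 bp. Of the 22 gamma genes it was 3 at 1000 bp before the start, 11 at the start, 19 at 1000 bp and 5 at 3000 bp. The beta profile was flatter, with 8 of 16 genes at 1000 bp before the start, 15 at 1000 bp and 9 at 3000 bp, where wide regions join neighbouring genes. Farther from the start the counts include the regions of neighbouring genes.

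**Figure D3:**
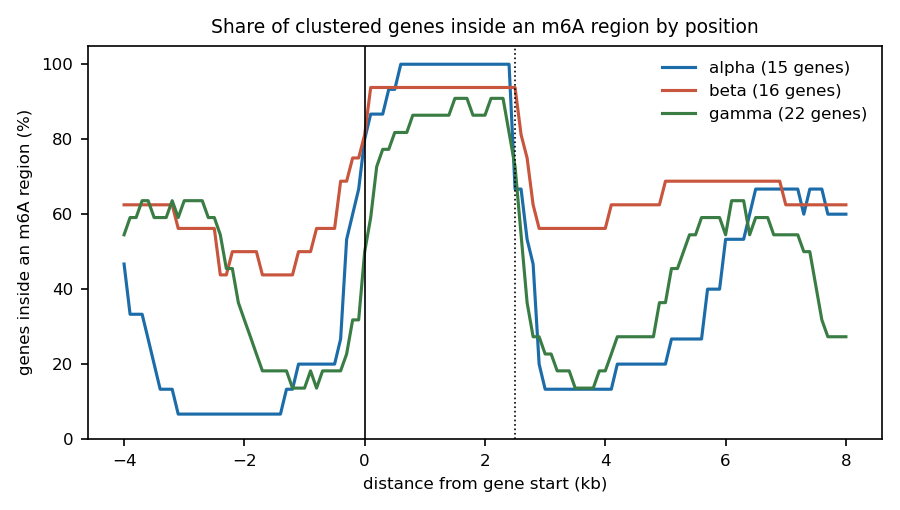
Share of the 15 alpha, 16 beta and 22 gamma genes (vertical axis, percent) that lie inside an m6A region at each distance from the gene's start (horizontal axis, kb; solid line, start; dotted line, 2500 bp). Alpha reaches 100% and gamma 90.9% between the lines, and alpha drops to 13.3% at 3000 bp, whereas beta stays at 56.2% there.

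Bases between the variable exons were covered far less in the alpha and gamma clusters. From the first start to the end of the last variable-exon stretch, alpha regions covered 97.3% of the bases in these stretches and 10.5% of those outside. In the gamma cluster it was 83.6% against 13.5%, and in the beta cluster 93.5% against 44.9%. These are bases of the genome, so introns and the DNA between genes count as outside.

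The stretches that hold the shared constant exons had no region. The constant part of the alpha cluster, PCDHACT, spans 140978949 to 141012344 (33.4 kb) and held 0 regions; the last region of the cluster ended 5251 bp before it. The last 20 kb of the gamma genes (141492976 to 141512975), where the gamma constant exons lie, likewise held 0, with the nearest region 1551 bp before. To have no region is common, since only 30.2% of all protein-coding genes had one anywhere over the gene body. Bounds of the constant exons were not used, so a lack of m6A in them cannot be read from these counts. In exon terms, all 36 coding-exon regions of clustered genes were in exon 1 of their annotated transcript, 25 in transcripts of a single exon and 11 in transcripts of 4 exons. Among coding-exon regions of all other genes 11.7% of 1869 were in exon 1, and 6.69% in exon 1 of a single-exon transcript. For the 25 regions in single-exon transcripts (6 alpha, 7 beta and 12 gamma) exon 1 was the only place possible, so that only the other 11 (6 alpha and 5 gamma) could have been centred in another exon.

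Protocadherin regions were wide. Among the 46 exonic regions the median was 2676 bp (95% interval of the median 2574 to 3050 bp, quartiles 2404 and 3174 bp), and 39 exceeded 2 kb (84.8%). That interval takes the 46 regions as independent, though many belong to related copies, and it does not cover replicate error. Exonic regions of other protein-coding genes, 2814 in number, had a median of 1288 bp with quartiles at 1000 and 1809 bp, and 19.1% exceeded 2 kb. In single-exon coding transcripts of other genes, the most similar layout compared, the median of 125 regions was 1454 bp and 21.6% were over 2 kb. Exon lengths were not matched, and their part in the widths was not tested. By group the medians were 2927 bp in alpha (1529 to 3691 bp, 14 regions), 3072 bp in beta (2574 to 34758 bp, 7 regions), 2656 bp in gamma (854 to 7987 bp, 18 regions) and 2403 bp outside the clusters (1049 to 3434 bp, 7 regions). The ranges of the 4 groups overlap. Most exonic regions of the clusters were thus somewhat wider than the 2500 bp stretch, and only 3 exceeded 5 kb.

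**Figure D4:**
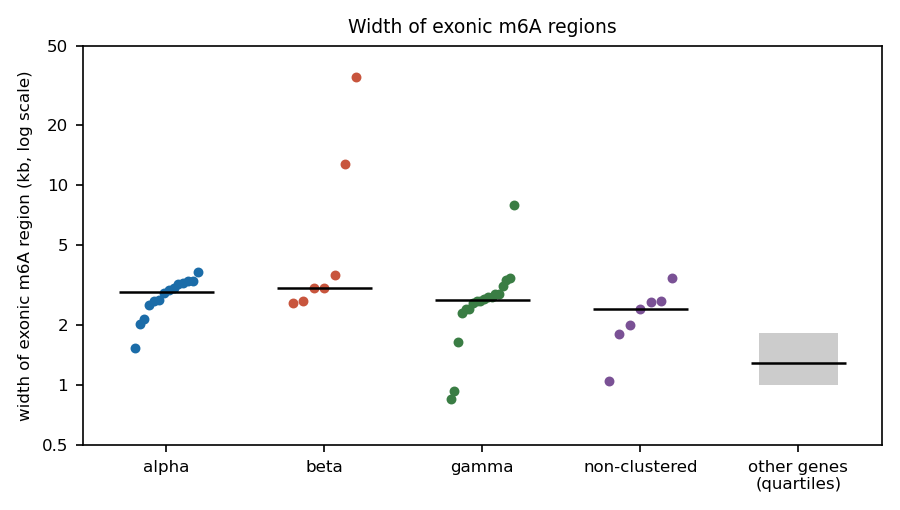
Width in kb (log scale) of each exonic protocadherin region by group (points; black line, group median), beside the quartiles (grey box) and median of 2814 exonic regions of other protein-coding genes. The protocadherin medians lie between 2403 and 3072 bp, above the upper quartile of the other genes, 1809 bp.

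Coding exons held most of the centres, and repeats were named at few regions in the clusters, where few centres lay in introns or between genes. Of the 70 regions 42 were centred in coding exons (60.0%, 47.6 to 71.5%), 9 in introns, 10 between genes, 3 in 3' UTRs, 3 at transcript ends and 1 each in a 5' UTR, a non-coding exon and a promoter. Exons of any kind made up 67.1% (54.9 to 77.9%), against 30.9% of all 9900 regions. Of the 49 regions in the clusters 4 were centred on a repeat (8.16%), against 38.2% of all regions. The 4 were at the Alu element between PCDHA7 and PCDHA8, and at an L1 element, a retrotransposon, in 3 intergenic regions near PCDHB3, PCDHB4 and PCDHB6. Among the 70 regions a repeat was named only where the centre lay in an intron or between genes. In the clusters 2 centres lay in introns and 3 between genes, against 50.2% and 13.3% of all regions. The low share of repeats is therefore not separate from the high share of exons. Of the 21 regions of non-clustered genes 9 were centred on an L1 element, 6 of them in PCDH11X. The rest of the 9 were intergenic and were taken only because PCDH15 or PCDH19 had the nearest start. The share of L1 among all regions was not counted, so the 9 have no background.

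Pseudogenes of the clusters, which are not members, were covered too. A region lay over all or part of each of the 5 in the gene table. The share of all pseudogenes under a region was not counted, so this count has no background. Of the bases outside the gene stretches, pseudogenes included, 44.9% were covered in the beta and 13.5% in the gamma cluster. PCDHB17P and PCDHGB8P were covered in full, PCDHB18P to 79.6%, PCDHGB9P to 48.1% and PCDHB19P to 43.5%. The region at PCDHGB8P (141425881 to 141428543) was 2663 bp wide, between the 2406 bp of PCDHGA11 and the 2749 bp of PCDHGA12, the coding genes on either side. Pseudogenes resemble their coding neighbours in sequence, and whether reads of the latter were placed on them was not tested.

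The clusters were among the parts of the genome with most regions. From 140786491 to 141491425 there were 53 regions, 49 of them protocadherin regions, which covered 226518 of 704935 bp (32.1%). The other 4 lay at TAF7, at PCDHB18P and PCDHB19P and in intergenic sequence ahead of PCDHB2. The 1-Mb bin of chromosome 5 that starts at 141 Mb, with the beta and gamma clusters, held 41 region centres, the most of the 2212 bins with any, where the median was 4. Clustered protocadherins gave 33 of the 41. The bin before it, with the alpha cluster, held 26 (16 of them in the cluster) and ranked 4, behind that bin and 2 bins of chromosome 19, at 52 Mb (39) and 57 Mb (34).

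**Figure D5:**
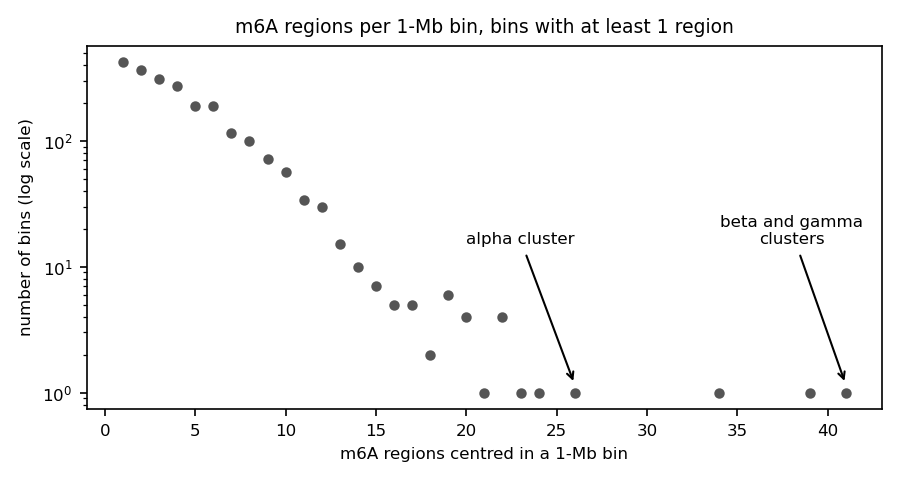
Number of 1-Mb bins of the genome (vertical axis, log scale) with a given number of m6A region centres (horizontal axis), for the 2212 bins with at least 1. Arrows mark the bins of the alpha cluster (26 regions) and of the beta and gamma clusters (41 regions, the most of any bin).

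Outside the clusters, 7 of the 13 genes were overlapped by a region and 6 had an exonic one, each with a region in coding exon 1 or 2 of the annotated transcript. For PCDH7, PCDH10, PCDH1 and PCDH20 that transcript had only 1 or 2 exons, so no other exon was possible. Only the regions of PCDH18 (exon 1 of 4) and PCDH11X (exon 2 of 7) could have been centred in a later exon. PCDH1, a protocadherin of epithelia on the same arm of chromosome 5, had 2: 2403 bp in coding exon 2 of 2 of its annotated transcript (141863252 to 141865654) and 1049 bp in the 3' UTR, exon 5 of 5 (141853412 to 141854460). PCDH10, known for guidance of growing axons, had 3434 bp on chromosome 4 (133149305 to 133152738), exon 1 of 1. PCDH18, also on chromosome 4, had 2637 bp (137529867 to 137532503) in exon 1 of 4, from 9 bp before its start to 2627 bp after it, close to the placement in the alpha cluster. PCDH7 had 1989 bp (30722482 to 30724470), which began 2113 bp from the start, and PCDH20 had 2609 bp on chromosome 13 (61411127 to 61413735) in exon 2 of 2, 42.3% of the gene.

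PCDH11X was the exception in layout. This X-linked gene of 843856 bp carried 9 regions over 3.67% of its body, of which 1, of 1792 bp in exon 2 of 7 (91877583 to 91879374), was exonic, and 6 were centred on L1 elements. Its near-identical copy on the Y chromosome, PCDH11Y, had 1 intronic region of 753 bp. Reads of the pair are hard to tell apart, so each is uncertain. No region overlapped PCDH8, PCDH9, PCDH12, PCDH15, PCDH17 or PCDH19. PCDH15, a component of the tip link of inner ear hair cells, was the nearest start of 4 intergenic regions, the closest 39406 bp from the gene. The gap to the nearest region was 1017847 bp for PCDH17 and 937432 bp for PCDH19, an epilepsy gene.

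Genes that act with the protocadherins were counted in the same way. Of cohesin subunits, loaders and CTCF, which fold the clusters and set promoter choice, 2 of 11 had an exonic region (18.2%, 2.28 to 51.8%): SMC3, a cohesin ring subunit, with 1475 bp, and NIPBL, its loader, with 1106 bp in the 3' UTR. CTCF, MAU2 and PDS5A had none. Of factors that silence clustered protocadherins, 3 of 11 had one (27.3%, 6.02 to 61.0%), namely REST (2197 bp in its last exon), EHMT1 (1302 bp) and LRIF1 (1212 bp). The DNA methyltransferases DNMT1, DNMT3A and DNMT3B had none. Of intracellular partners, which link protocadherins to actin and kinases, 1 of 18 had one, AXIN1 with 1295 bp (5.56%, 0.141 to 27.3%), and ABI1, ABI2 and BAIAP2 had none. All 3 intervals include the 12.9% of all protein-coding genes, and all 3 overlap those of the beta and the non-clustered protocadherins.

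The other cadherins were counted in 3 lists. The list of CDH genes and catenins, among them the classical cadherins of adherens junctions, had an exonic region in 2 of 28 genes (7.14%, 0.877 to 23.5%). These were CDH4 (1240 bp) and CDH11 (740 bp), both in the 3' UTR, while CDH1, CDH10 and CDH12 had none. Desmosomal cadherins had 0 of 7 (up to 41.0%). Of the rest of the superfamily, among them the FAT, CELSR, DCHS, CDHR and CLSTN genes, 8 of 17 had one (47.1%, 23.0 to 72.2%), where 12.9% of all protein-coding genes did. FAT4 and FAT1, atypical cadherins of growth control and polarity, had 5 and 3 regions, and CELSR2 and FAT3 had 2 each. Of these 4, FAT4 and CELSR2 had a region in exon 1, as the clustered protocadherins did. CELSR1 and CELSR3, of the same list, also had a region in exon 1. No exonic region was found in CDHR2, CDHR3 or CDHR4. The lists may differ in gene length and RNA level, which were not compared here, and the part of either was not tested.

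Marker genes give only a limited check of the cell type here, since regions are not RNA levels. Of 10 genes of primed pluripotent cells 4 had an exonic region (12.2 to 73.8%), SALL4, L1TD1, SOX2 and OTX2, the last in a non-coding exon. POU5F1, NANOG, ZIC2, DNMT3B (also among the silencers), LIN28A and LIN28B had none. Of 10 genes of neural cells, in which clustered protocadherins are best known, 1 had one (0.253 to 44.5%), NES with 1436 bp, an intermediate filament gene of neural progenitors, while DCX, ELAVL3 and MAP2 had none. Both intervals include the 12.9% of all protein-coding genes and they overlap each other, so these counts do not settle the cell type.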

How the data were processed

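Per the submitters' processing notes, hg38 was the genome and the tools included HISAT2 2.2.1 and Trim Galore 0.6.7, beside MACS2 2.2.7.1, HOMER, bedtools 2.30.0 and SAMtools 1.6. Their order and settings, and which sets were intersected, are not given in the sources used here. Deposited by the authors were 9900 intervals, in base pairs, and HOMER's annotation of their centres; its Peak Score (always 0) and its strand (always the same) were not used.

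A region was given to the gene of its annotated transcript in the RefSeq table of GRCh38.p14 (8523 of 8585 matched, 99.3%), or else, for 19 of 27 unmatched exonic regions, to the only protein-coding gene that held its centre, as for PCDH7. Gene starts and strands came from this table and its promoter sequences; clustered genes without a promoter entry were placed on the + strand like their neighbours. Overlap needed 1 bp. Counts, medians and exact binomial intervals were computed with Python 3.11.15, pandas 2.3.3, numpy 2.4.6 and scipy 1.17.1, and drawn with matplotlib 3.10.9. Only the assignment of regions to genes and their overlap were tested on simulated regions. No test between groups of samples was possible.

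The members, gene lists and windows were chosen with earlier results of these data known. Every protocadherin was accounted for. Of other lists up to 4 marked genes (most regions, then most bases) and up to 3 unmarked (alphabetical) were named. Beyond this rule, CELSR1, CELSR3 and all 10 genes of primed pluripotent cells were named. Alternatives changed gene assignment, features, width limits, merging and minimum overlap.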

Additional observations from a re-analysis of the deposited data

How the results depend on the processing

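No paired analysis was possible because the libraries share replicate numbers only in their labels and a single set of regions stands for all 4, so that leaving out a replicate could not be run either. The count of protocadherin genes with an exonic region, 43, ranged from 40 to 59 under the alternatives other than a width limit of 2 kb, and 42 remained with the transcript match alone, an alternative chosen after seeing the data. With regions up to 2 kb it was 7 of 66, since most protocadherin regions are wider. That share is close to the 10.5% of all protein-coding genes under the same limit. The median width moved between 2637 and 2713.5 bp. The share of exonic centres was 79.3% over regions whose annotated transcript is a protocadherin's. Beta genes overlapped by a region were 5 of 16 with regions up to 5 kb, which removes the joined regions. When every region went to the gene with the nearest start, the lists had 7 cohesin and CTCF genes, 5 silencers and 5 intracellular partners. The cadherin lists then had 9 CDH and catenin genes, 1 desmosomal cadherin and 7 others of the superfamily (8 in the report). The share of all protein-coding genes rose to 25.7%. Depth was unknown, so that no detection limit per gene can be given.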
